A study of Mus musculus with 20 samples.

Results

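The gene-distant short H3K27me3 regions described here are stretches of the mouse genome that carried the Polycomb mark in the developing inner ear ganglion and that lie away from every protein-coding gene. They were chosen by merging the overlapping H3K27me3 peaks of replicates 2 and 3 and keeping merged regions under 8 kb, with a peak in both lists, that lie outside and more than 10 kb from every protein-coding gene. The rule kept 2035 of 10317 merged regions that had a peak in both lists, which is 19.7%, or 21.1% of the 9656 short ones. The members were thus chosen with peak calls of the same 2 libraries, so the strength, width and position of those peaks are given as a description, without a test.

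The study used CUT&Tag, which cuts and tags DNA beside an antibody-bound protein in nuclei, on ganglia labelled CVG (cochleovestibular ganglion, the source of the auditory and vestibular sensory neurons) of C57BL/6J mice at stage E11.5 of embryonic development. No mutant allele, transgene or treatment is named in the labels, and all groups share this strain, age and tissue. The groups are antibodies: ISL1_26 with 1 library, ISL1_70 with 3, POU4F1 with 2, H3K4me3 with 2, H3K27me3 with 3 and H3K27ac with 3, while 6 IgG libraries were not analysed here. ISL1 and POU4F1 are homeodomain transcription factors of sensory neurons, and the study asked how they interact in these cells. The labels do not say whether replicates came from separate embryos or pools, so the spread between them may be technical.

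H3K27me3, trimethylated lysine 27 of histone H3, is written by Polycomb repressive complex 2 and is found at silent genes, above all at CpG-rich promoters of developmental regulators. H3K27ac, acetylation of the same residue, marks active enhancers and promoters, and a single histone tail cannot carry both, whereas H3K4me3 marks promoters and can lie beside H3K27me3 in what are called bivalent regions. Polycomb marks away from genes have been described at silent or poised enhancers and at promoters of non-coding RNAs. In bulk tissue, marks over one region can come from different cells, and fewer cells with a mark cannot be told apart from less mark per cell.

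Promoters of non-coding RNA genes lie in some of the regions, and 6 of them are shown because they run from 1 to 38 CpGs. They were chosen after their values were seen. Each is 300 bases long, RefSeq sequence of the GRCm38.p6 build, read 5′ to 3′ on the gene's strand, with each CpG in capitals. The first is that of 9530059O14Rik at chr9:122572251-122572550 on the plus strand, inside the member that holds the best ranks in replicates 2 and 3 after 2 others. Cistr lies at chr15:102746860-102747159 on the minus strand, and Mirc35hg, the host gene of Mir182, Mir96 and Mir183, at chr6:30174076-30174375 on the minus strand. Tunar, a long non-coding RNA gene needed for neural differentiation of embryonic stem cells, lies at chr12:105336743-105337042 on the plus strand. C130071C03Rik, a host gene of Mir9-2, lies at chr13:83732243-83732542 on the plus strand, and Gm41033 at chr13:98574537-98574836 on the minus strand.
9530059O14Rik: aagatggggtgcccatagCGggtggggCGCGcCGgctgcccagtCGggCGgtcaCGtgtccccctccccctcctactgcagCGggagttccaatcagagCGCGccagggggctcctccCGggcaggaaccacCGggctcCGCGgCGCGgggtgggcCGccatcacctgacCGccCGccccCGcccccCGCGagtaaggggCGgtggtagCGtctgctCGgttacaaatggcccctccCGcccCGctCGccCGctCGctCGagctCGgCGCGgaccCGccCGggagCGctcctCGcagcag
Cistr: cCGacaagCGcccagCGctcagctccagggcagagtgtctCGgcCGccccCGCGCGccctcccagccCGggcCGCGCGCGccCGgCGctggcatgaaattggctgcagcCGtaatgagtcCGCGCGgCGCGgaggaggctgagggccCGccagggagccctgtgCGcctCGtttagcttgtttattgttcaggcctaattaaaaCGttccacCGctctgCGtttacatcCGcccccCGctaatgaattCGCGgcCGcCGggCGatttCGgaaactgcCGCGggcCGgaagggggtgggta
Mirc35hg: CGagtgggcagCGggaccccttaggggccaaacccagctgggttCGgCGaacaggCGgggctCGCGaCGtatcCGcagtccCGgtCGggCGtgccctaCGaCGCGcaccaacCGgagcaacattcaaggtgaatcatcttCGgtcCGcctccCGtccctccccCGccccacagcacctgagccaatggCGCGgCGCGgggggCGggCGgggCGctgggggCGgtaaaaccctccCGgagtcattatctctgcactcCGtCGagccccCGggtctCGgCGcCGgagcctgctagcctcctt
Tunar: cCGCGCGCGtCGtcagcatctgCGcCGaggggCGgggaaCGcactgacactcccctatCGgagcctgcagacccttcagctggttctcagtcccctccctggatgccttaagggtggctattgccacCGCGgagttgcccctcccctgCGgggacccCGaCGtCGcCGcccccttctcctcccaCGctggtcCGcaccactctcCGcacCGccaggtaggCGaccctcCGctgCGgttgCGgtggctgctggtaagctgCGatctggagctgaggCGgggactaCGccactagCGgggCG
C130071C03Rik: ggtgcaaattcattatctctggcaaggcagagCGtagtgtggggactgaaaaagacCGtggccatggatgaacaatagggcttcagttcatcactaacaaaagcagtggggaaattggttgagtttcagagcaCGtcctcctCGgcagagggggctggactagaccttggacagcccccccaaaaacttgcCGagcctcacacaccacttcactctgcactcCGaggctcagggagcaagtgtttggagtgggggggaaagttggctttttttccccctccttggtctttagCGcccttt
Gm41033: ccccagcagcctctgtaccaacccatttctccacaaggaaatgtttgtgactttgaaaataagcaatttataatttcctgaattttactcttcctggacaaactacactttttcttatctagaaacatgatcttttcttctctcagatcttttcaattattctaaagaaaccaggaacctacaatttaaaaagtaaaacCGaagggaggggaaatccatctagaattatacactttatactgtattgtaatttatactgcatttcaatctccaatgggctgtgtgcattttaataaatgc

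Hairpins of microRNAs lie in 8 of the regions, with 11 annotated microRNA genes. The RefSeq sequences used hold 16 mature sequences of these genes, with none for Mir124a-2 or Gm51272. All 16 seeds, bases 2 to 8, are distinct, so none of the 16 form a shared-seed group. Shown with the seed in capitals are those of microRNAs with a known role: miR-9, abundant in neural progenitors, miR-193a and miR-365, and miR-202, best known from the gonads. They too were chosen after the values were seen, and the coordinates are again GRCm38.p6. On the plus strand miR-9-5p lies at chr13:83738821-83738843, miR-9-3p at chr13:83738858-83738879, miR-193a-3p at chr11:79712009-79712030 and miR-365-3p at chr16:13453895-13453916. On the minus strand miR-202-3p lies at chr7:139957695-139957716.
mmu-miR-9-5p: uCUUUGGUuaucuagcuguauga
mmu-miR-9-3p: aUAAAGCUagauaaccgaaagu
mmu-miR-193a-3p: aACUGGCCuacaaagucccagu
mmu-miR-365-3p: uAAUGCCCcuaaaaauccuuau
mmu-miR-202-3p: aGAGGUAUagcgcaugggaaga

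The lists set the precision, because they hold peaks and no read counts. Depth is unknown, and the lists run from 8855 peaks in H3K27ac replicate 1 to 168144 in H3K27ac replicate 3. The tissue label was checked at gene ends: 16 of 20 sensory neuron genes had an H3K27ac peak in at least 2 libraries, against 4 of 10 glial and neural crest genes, 5 of 12 otic epithelium genes, 5 of 13 mesenchyme genes, 4 of 9 muscle genes, 2 of 10 endothelial and blood genes and 0 of 15 heart, gut and liver genes, and 10945 of all 21887 protein-coding genes. H3K27me3 of both lists lay at ends of 13 of the 20 sensory neuron genes and 12 of the 15 heart, gut and liver genes. It lay at 7 of 10 glial and neural crest, 11 of 12 otic epithelium and 12 of 13 mesenchyme genes. Muscle genes, with 5 of 9, and endothelial and blood genes, with 3 of 10, had lower shares than sensory neuron genes. Housekeeping genes had it at 0 of 20 and all protein-coding genes at 18.9%. One library goes against its label. The library labelled H3K4me3 replicate 1 had peaks in 55.6% of the 1436 windows beside the members that also held H3K27me3 and in 1.25% of the 2634 that did not, whereas H3K4me3 replicate 2 had peaks in 3.62% and 1.71%. The main differences between classes and the main counts of libraries per member are given with and without it. Other means, medians and counts include it unless stated.

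The regions were short and, by rule, remote. Their widths ran from 275 to 7971 bp with a median of 1579 bp, and together they covered 4032 kb. The median distance to the nearest protein-coding gene was 40.1 kb, with quartiles of 19.7 and 100.3 kb and a maximum of 1639 kb. The authors' peak caller gave a median fold enrichment of 7.83 in replicate 2 and 15.5 in replicate 3. Short regions in or within 10 kb of a gene but over 1 kb from any gene end, called gene-near below, had similar medians of 1567 bp, 8.04-fold and 14.1-fold. Short regions within 1 kb of a gene end, called gene-end below, had medians of 2956 bp, 21.1-fold and 24.5-fold.

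The widest members measured 7971, 7953 and 7929 bp and the narrowest gene-distant regions left out 8053, 8056 and 8066 bp. The members nearest to a gene lay 10.001 kb from Nkx2-9, 10.003 kb from Olfr1358 and 10.007 kb from 2200002J24Rik, with folds in replicate 3 of 9.95, 28.4 and 12.6. The regions just left out lay 9.986 kb from En2, 9.984 kb from Klk4 and 9.977 kb from Utp6, with folds of 18.4, 7.84 and 7.78.

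H3K27me3 replicate 1, which the rule did not use, had a peak in 314 members, or 15.4% (95% Wilson interval 13.9 to 17.1%), against 31.6% of all 10317 regions. Intervals of this kind cover counting error only. Most peaks of replicate 1 were weak: its list ends near a −log10 q of 1 and has a median of 1.09. The medians were 10.8 in replicate 2 and 13.6 in replicate 3. The share of replicate 1 was 18.1% in gene-near and 43.3% in gene-end regions and 5.36% in windows of equal width placed 5 kb beyond each edge of a member. Width moved with this share: it was 5.56% in the 540 members under 1 kb and 48.5% in the 198 members of 4 to 8 kb. In the 1 kb around the centre it was 5.93% and 19.2%. The library labelled H3K4me3 replicate 1 had a peak in 1718 members, 84.4%, against 90.0% of all regions, and in 20.4% of flanking windows.

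Peaks of ISL1, the LIM-homeodomain factor, lay in 386 of the 2035 members in the ISL1_26 library, against 28.0% of all regions. In ISL1_70 they lay in 319 members in replicate 1 (15.7% against 24.0%), in 180 in replicate 2 (8.85% against 15.8%) and in 166 in replicate 3 (8.16% against 12.4%). At least 1 of the 4 ISL1 libraries had a peak in 767 members (37.7%, against 38.8% of gene-near and 62.6% of gene-end regions). At least 2 had one in 212 (10.4%, against 20.8% of all regions), and all 4 in 16. Every one of the 4 shares thus lay below that of all H3K27me3 regions and above that of the flanking windows. ISL1_26 had a peak in 569 of these 4070 windows and ISL1_70 replicates 1 to 3 in 11.7%, 4.82% and 6.31%. In the 1436 flanking windows that also held H3K27me3, the shares were closer to those of the members. ISL1_26 had a peak in 17.97% of them, against 18.97% of members, and ISL1_70 replicates 1 and 2 in 14.97% and 8.22%. ISL1_70 replicate 3 was higher there than in members, at 8.496%. The difference from these windows alone was not tested.

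Peaks of POU4F1, the POU-homeodomain factor also called BRN3A, lay in 143 members in replicate 1 (7.03% against 1137 of 10317, or 11%, of all regions) and in 90 in replicate 2 (4.42% against 6.26%). At least 1 of the libraries had a peak in 222 members (10.9%, against 10.7% of gene-near and 19.8% of gene-end regions). Both had one in only 11, or 0.541% against 1.19% of all regions. Flanking windows had a peak in 4.50% of cases in replicate 1 and in 122 of 4070 in replicate 2. Most members with a POU4F1 peak thus had it in a single replicate, 211 of 222. The same held for 394 of 410 gene-near and 707 of 754 gene-end regions with a peak, so this is not particular to the members.

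H3K27ac shares varied widely between libraries. Its peaks lay in 22 members in replicate 1 (1.08% against 7.37%), in 361 in replicate 2 (17.7% against 29.2%) and in 526 in replicate 3 (25.8% against 37.5%). At least 1 library marked 670 members (32.9%, against 36.7% of gene-near and 61.9% of gene-end regions). At least 2 marked 229 (11.3% against 22.0% of all regions) and all 3 marked 10. H3K4me3 replicate 2 marked 85 members (4.18% against 17.7%), and 53 of these, or 62.4%, had H3K27ac in at least 1 library, against 31.6% of the other members. In gene-near regions its share was 9.15% and in gene-end regions 29.1%. The promoter mark was thus far less frequent in gene-distant than in gene-end regions in this library.

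**Figure D1:**
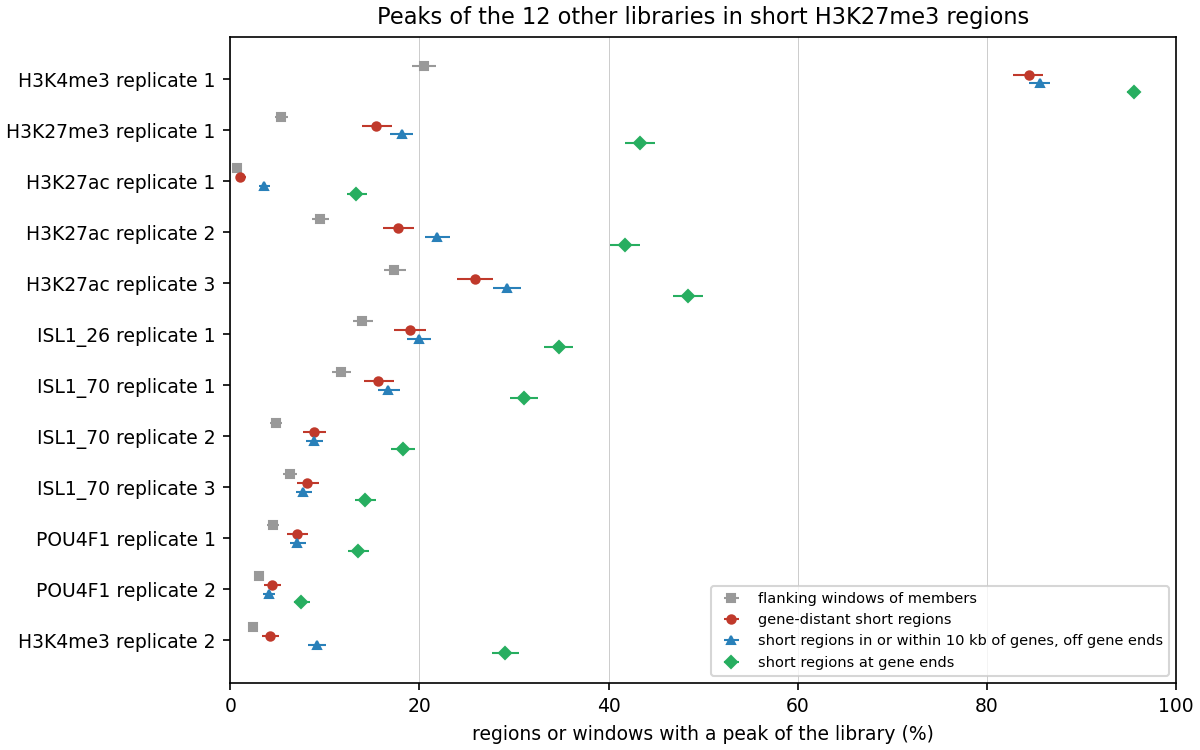
Share of regions with a peak of each of the 12 libraries the rule did not use (x axis, percent; bars are 95% Wilson intervals) for gene-distant short regions, their flanking windows, gene-near and gene-end regions. In each of the 12 libraries the gene-distant regions lie above their flanks and below gene-end regions. Against gene-near regions they lie lowest in proportion in H3K27ac replicate 1 (1.08% against 3.54%) and H3K4me3 replicate 2 (4.18% against 9.15%).

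The comparison over the 11 libraries of other targets asked how the gene-distant regions differ from the rest in factor binding and active marks. Against gene-end regions the members' share was lower in 11 of 11 libraries, by a mean of 13.7 ± 7.53 percentage points (SD, n = 11; 17.9% against 31.6%), with an exact two-sided sign-flip permutation p of 0.000977, the smallest this design can give, and a Benjamini-Hochberg adjusted p of 0.00732 over 15 comparisons. The classes were drawn by distance to genes and gene-end regions include promoters, so the selection itself can give a gap in promoter marks. Gene-end regions also had higher H3K27me3 folds (medians of 21.1 against 7.83 in replicate 2), which was not adjusted for, and are wider. With shares weighted to the members' width classes the mean difference was -9.77 points, and with 1 kb windows at the centres -8.36 points. Without the library labelled H3K4me3 replicate 1 it was -14.0 points (exact permutation, adjusted p = 0.0146). Against flanking windows the members' share was higher in 11 of 11 libraries by 9.24 ± 18.3 points (SD, n = 11; exact permutation p = 0.000977, adjusted p = 0.00732). Most of that mean came from the library labelled H3K4me3 replicate 1, and without it the difference was 3.76 points (exact permutation, adjusted p = 0.0146).

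Against gene-near regions the members did not pass the test. Their share was lower in 9 of 11 libraries, by a mean of 1.59 ± 1.88 points (SD, n = 11; 17.9% against 19.4%; exact permutation p = 0.0127, adjusted p = 0.0635). The difference was -3.33 points for H3K27ac, lower in 3 of 3 libraries, -0.401 points for ISL1, lower in 3 of 4, and 0.140 points for POU4F1, lower in 1 of 2. With 2 to 4 libraries the exact permutation test cannot reach 0.05 for a single target: its smallest p is 0.25 for 3 libraries and 0.5 for 2, and for the 4 ISL1 libraries p was 0.375. The mean difference was -1.63 points without the library labelled H3K4me3 replicate 1 (exact permutation, adjusted p = 0.127), and it passed at -2.53 points when the distance limit was 5 kb (exact permutation, adjusted p = 0.0146).

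Peaks of several libraries were more frequent at the centres of the regions than in the sequence around them. H3K27ac replicate 2 had a peak in 12.3% of members in the 500 bp bin right of the centre and in 5.16% at 9.75 kb, replicate 3 in 15.6% and 8.99%, and ISL1_26 in 9.68% and 6.34%. The library labelled H3K4me3 replicate 1 fell from 78.3% there to 16.8% at 5.25 kb. H3K27ac replicate 1, with few peaks, stayed under 1% at every distance, with 0.246% at both 0.25 and 5.25 kb, and ISL1_70 replicate 3 had 3.78% and 3.05% there. In wide members many peaks lay off the centre: of the 198 members of 4 to 8 kb, 36.9% had an ISL1_26 peak and 11.6% had one in the central 1 kb.

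**Figure D2:**
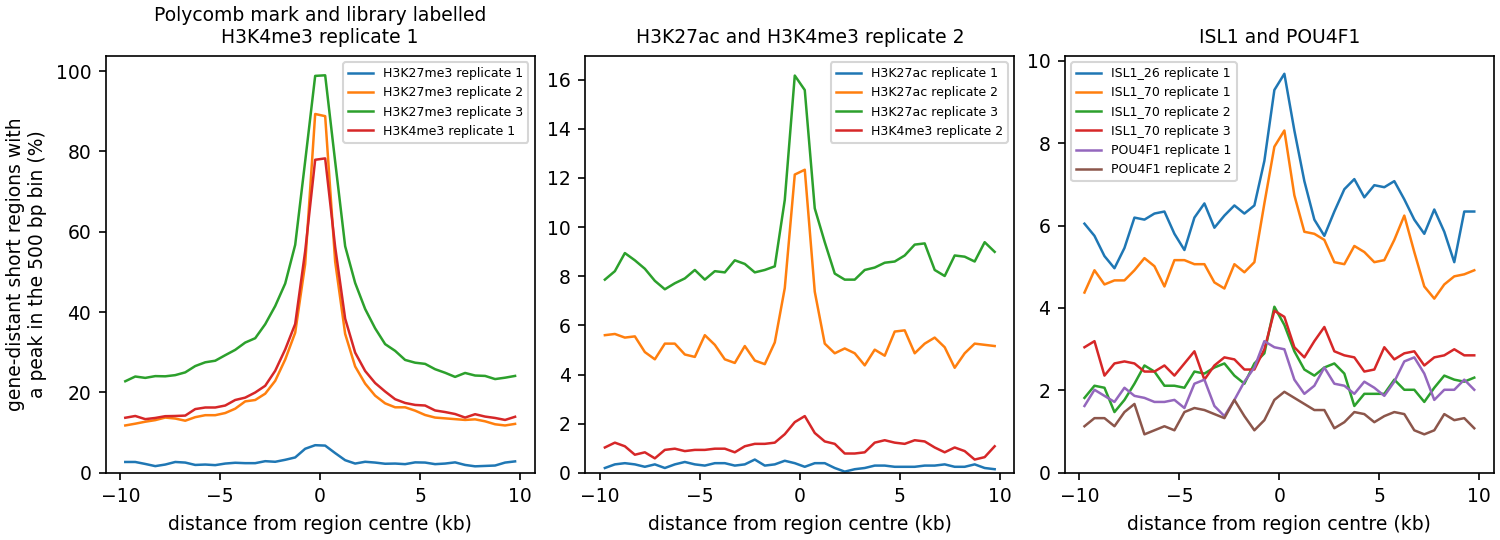
Share of the 2035 gene-distant short regions with a peak in each 500 bp bin (y axis, percent, scaled per panel) by distance from the region centre (x axis, kb), for each library. H3K27me3 replicates 2 and 3 chose the regions, so their central peak is given by the rule, whereas H3K27ac replicate 3 rises to 15.6% beside the centre from 8.99% at 9.75 kb.

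Most members carried few other signals, as did gene-near regions. In both classes the median was 2 of the 12 libraries outside the rule, with quartiles of 1 and 3. Gene-end regions had a median of 4, with quartiles of 2 and 5. A total of 201 (9.88%) had no peak in any of the 12 libraries outside the rule, 651 had one in 1 library, 545 in 2 and 290 in 3, and 79 had one in 6 or more. None had a peak in all 14 lists. Without the library labelled H3K4me3 replicate 1, 789 (38.8%) had no peak, 575 had one in 1 library, 312 in 2 and 187 in 3, and 37 had one in 6 or more. In 874 members (42.9%) no ISL1, POU4F1 or H3K27ac library had a peak. No share of the other classes is given beside this count, so it is not read as particular to the members.

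Peaks of most libraries were more frequent in members that also carried H3K27ac. In the 229 members with H3K27ac in at least 2 libraries, the ISL1_26 share was 38.4%, against 24.7% of the 441 with H3K27ac in 1 library and 13.8% of the 1365 without. The ISL1_70 shares ran in the same order, with 36.7, 18.6 and 11.2% in replicate 1, 14.4, 10.2 and 7.47% in replicate 2, and 17.0, 11.1 and 5.71% in replicate 3. POU4F1 replicate 1 gave 14.4, 8.62 and 5.27%, while replicate 2 gave 8.30, 3.63 and 4.03% with no order between the lower groups. H3K27me3 replicate 1 gave 25.3, 16.8 and 13.3%, and H3K4me3 replicate 2 gave 13.1, 5.22 and 2.34%. The groups also differed in width, with medians of 2044, 1797 and 1455 bp, and in the 1 kb around the centre the ISL1_26 shares were 27.9, 16.1 and 9.52%. These shares have no test, since regions are not replicates, and the part of width in them beyond this window was not tested.

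How the shares ran with distance to the gene differed between libraries. ISL1_26 peaks lay in 18.9% of the 523 members at 10 to 20 kb, in 20.2% of 640 at 20 to 50 kb, in 18.6% of 361 at 50 to 100 kb, in 21.4% of 308 at 100 to 200 kb and in 12.9% of 171 at 200 to 500 kb. In ISL1_70 replicate 1 the share was 11.9% (95% Wilson interval 9.36 to 14.9%) at 10 to 20 kb, 16.6% and 18.6% in the next bins and 19.2% (15.2 to 23.9%) at 100 to 200 kb. At 200 to 500 kb it was lower again, at 13.5% (9.13 to 19.4%). POU4F1 replicate 1 gave 4.78, 8.28, 8.86, 5.84 and 8.77% over the same bins, and H3K27ac replicate 3 gave 22.2, 28.9, 27.4, 27.9 and 20.5%. Only 32 members lay beyond 500 kb, of which 3 had an ISL1_26 peak and none a POU4F1 peak. The share with a peak of the library labelled H3K4me3 replicate 1 went from 89.1% at 10 to 20 kb to 24 of 32 members beyond 500 kb.

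The genes beside the regions were often transcription factors. The nearest protein-coding gene was on one of the transcription factor lists for 319 members (15.7%), whereas those genes are nearest to 3.96% of all gene-distant bases and make up 1.24% of genes. Homeobox genes, which encode DNA-binding factors of body patterning and neuron identity, were nearest to 176 members (8.65% against 1.49% of bases), or 8.41 per Mb of gene-distant genome against 1.45 per Mb over all gene-distant bases, and 55 of the 126 annotated ones had a member. Other developmental factors were nearest to 143 (7.03% against 2.47%). Taking the genes on both sides, 512 of 2027 members between protein-coding genes (25.3%) lay in a gap beside a listed factor, and these gaps hold 7.65% of gene-distant bases. Gene-close short regions had a listed factor as their nearest gene in 7.40% of cases. No test was made, since the lists were chosen with earlier results known.

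The other lists are smaller or sparser. Signalling genes were nearest to 28 (1.38% against 0.678% of bases), led by Bmp7, Dlk1 and Wnt7a with 4 each. Axon guidance and adhesion genes, which sit in large gene deserts, were nearest to 24 (1.18% against 6.94%), or 0.247 per Mb, and ion channels and receptors to 13 (0.639% against 1.77%), 7 of them at Galr1 and 5 at Adra2a. Otic epithelium genes were nearest to 15 (0.737% against 0.156% of bases, 6.86 per Mb), with 6 each at Pax2 and Sox2, and heart, gut and liver genes to 14 (0.688% against 0.130%, 7.67 per Mb), among them 4 at Gata6. Pax2, Sox2 and Gata6 are themselves on the transcription factor lists. Sensory neuron genes were nearest to 6 (0.295% against 0.360%), of which 4 lay by Ntrk3, the receptor of neurotrophin 3, and glial and neural crest genes to 6 (0.295% against 0.0968%), 5 of them at Foxd3. Muscle genes were nearest to 2 (0.0983% against 0.0339%), mesenchyme genes to 1 (0.0491% against 0.183%), housekeeping genes to 1 and endothelial and blood genes to none.

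**Figure D3:**
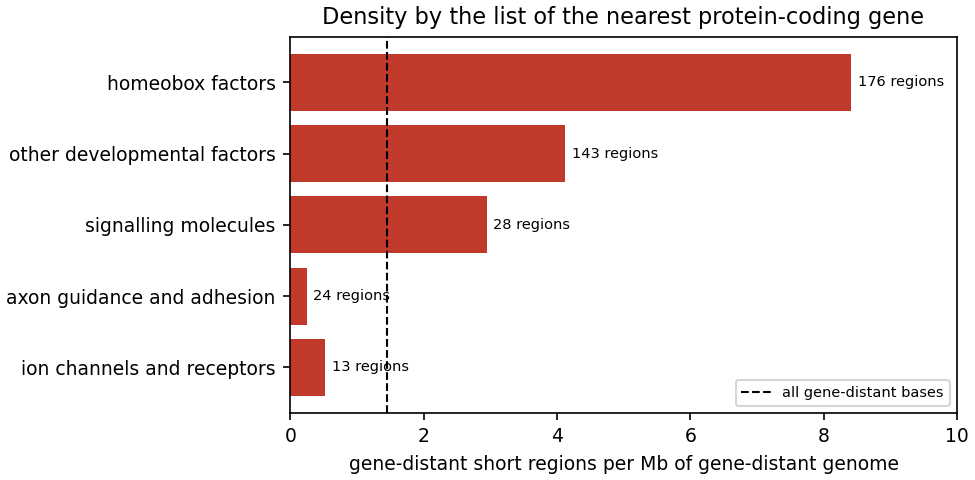
Number of gene-distant short regions per Mb of gene-distant genome (x axis) whose nearest protein-coding gene is on each list (bars, with the number of regions), with 1.45 per Mb over all gene-distant bases as the dashed line. Homeobox factors stand at 8.41 per Mb and axon guidance and adhesion genes at 0.247.

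Some genes gathered several regions, while most genes nearest to a member had only 1. Of 1050 genes nearest to at least 1 member, 630 had 1 and 75 had 5 or more, which together hold 533 members. Rybp, a subunit of variant Polycomb complexes, was nearest to 17, Matn1 (matrilin 1, a cartilage matrix protein) and Rbm19 to 15 each, Rragc to 14 and Tex29 to 12. A230072I06Rik and Shq1 had 10 each. Among the listed factors, Uncx had 13, Hmx1, Irx3 and Pou3f1 11 each, Sall1 10 and Sox1 9. Nkx2-1 and Foxf1 had 8 each. H3K27ac peaks lay in 8 of the Uncx members and 5 of those at Hmx1, but in none of the 8 at Nkx2-1, the forebrain, lung and thyroid regulator, nor in the 7 at Gsx1. Nkx2-1 and Gsx1 were singled out after their values were seen. At Matn1, ISL1 peaks lay in 11 of 15.

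The regions formed clusters when joined over gaps of at most 50 kb. There were 1109 clusters, 714 of them single members (35.1% of members), and 65 of at least 5 that hold 500 members (24.6%). The largest held 21 members over 221 kb of chromosome 8 between Tex29 and A230072I06Rik, with H3K27ac in 6 and ISL1 in 9. The next surrounded homeobox genes on chromosome 5. Hmx1, a regulator of the ear and of sensory ganglia, had 17 members over 121 kb, with H3K27ac in 7 and ISL1 in 9, and Uncx had 17 over 176 kb, with H3K27ac in 12 and ISL1 in 9. Further clusters lay between Rbm19 and Lhx5 (15 members), Rybp and Shq1 (14), Rragc and Pou3f1 (13) and Irf8 and Foxf1 (13), and 2 of 11 members each lay on chromosome 13 beside B020031M17Rik and Gm21188, without any H3K27ac. The median gap from a member to the next short region was 5.66 kb, against 2.27 kb for gene-near and 24.95 kb for gene-end regions. A region of 8 kb or more lay within 50 kb of 21.1% of members, 20.7% of gene-near and 9.88% of gene-end regions. Closeness to other H3K27me3 regions was thus not particular to the members.

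**Figure D4:**
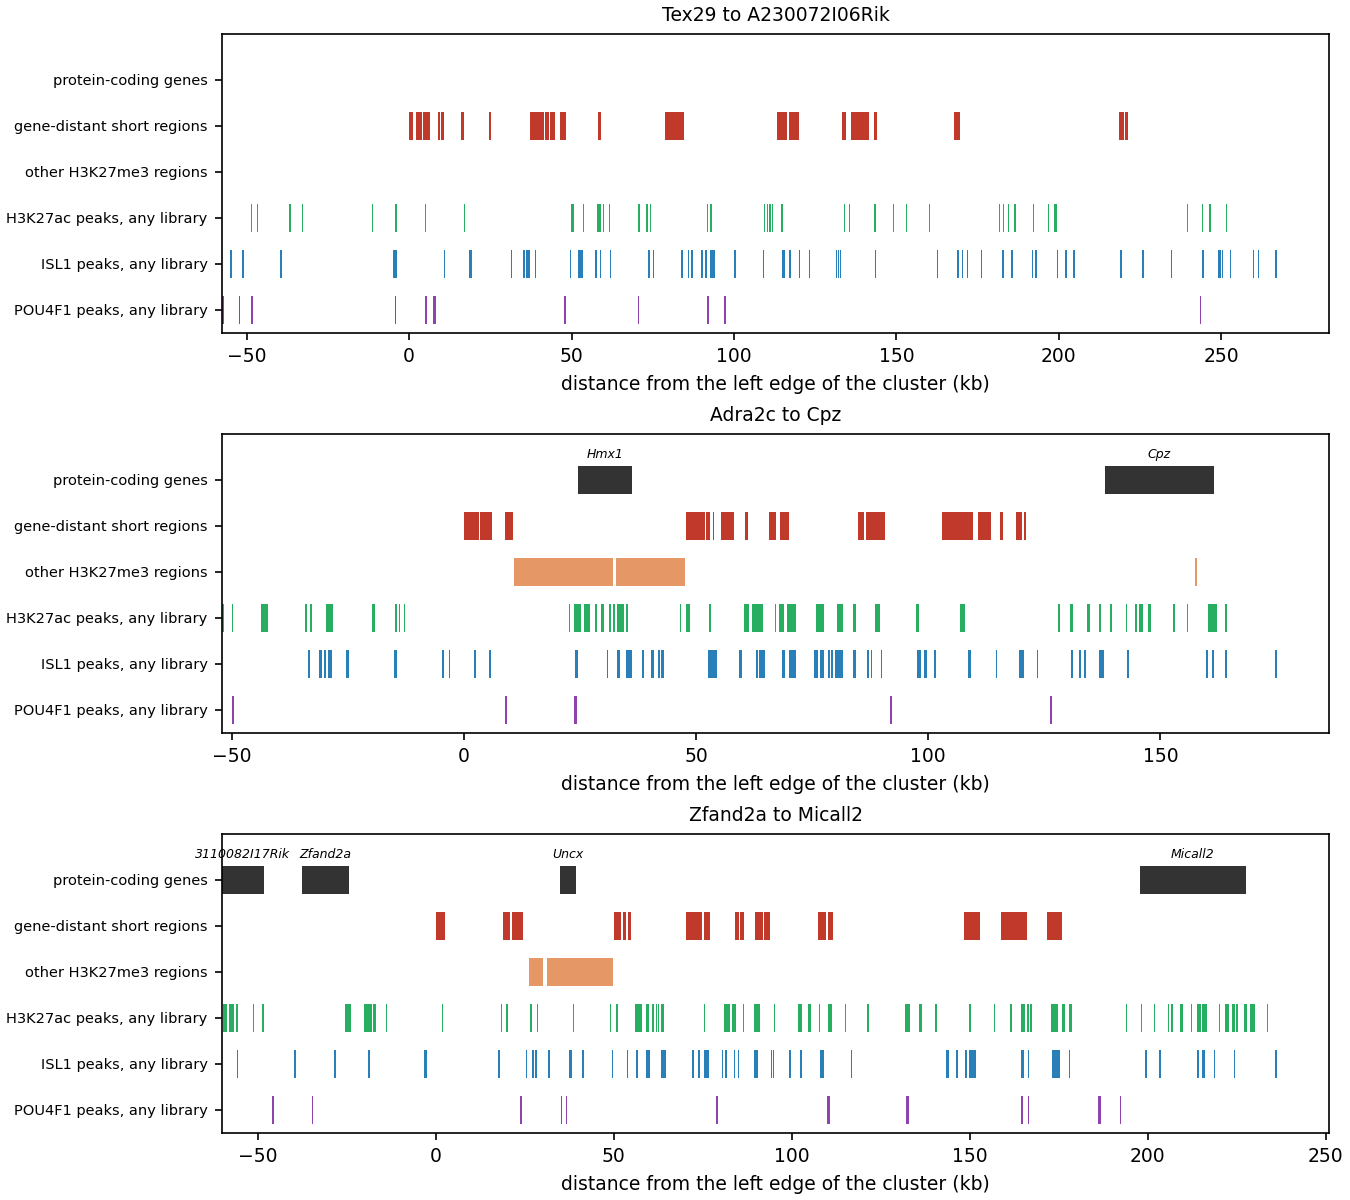
The 3 largest clusters drawn to scale, by distance from the left edge of the cluster (x axis, kb), with protein-coding genes, gene-distant short regions, other H3K27me3 regions in both lists and the peaks of any H3K27ac, ISL1 or POU4F1 library. The regions flank Hmx1 and Uncx, whose bodies lie in other H3K27me3 regions, while no protein-coding gene lies in the 221 kb between Tex29 and A230072I06Rik.

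Chromosomes differed in density. Chromosomes 19, 8 and 5 had 2.95, 2.72 and 2.71 members per Mb of gene-distant genome, and chromosomes 1 and X 0.634 and 0.777. On the Y chromosome 5 members lay in 83.4 Mb.

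The strongest member of both lists lay at chr17:39842997-39848911 over Rn18s-rs5, a pseudogene of ribosomal RNA, and AY036118, with folds of 8.71, 282 and 63.2 in H3K27me3 replicates 1 to 3. It had peaks of all 4 ISL1, both POU4F1 and both H3K4me3 libraries but of no H3K27ac library. Whether IgG libraries also have a peak there was not analysed here. The second, at chr3:5860339-5860936, was only 598 bp wide with folds of 2.95, 484 and 16.5, and 3 ISL1 libraries had a peak in it. A member of the Y chromosome, at chrY:90769254-90772716, had peaks in 10 of the 12 libraries outside the rule, among them all ISL1 and POU4F1 libraries, or in 9 without the library labelled H3K4me3 replicate 1.

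The other 8 of the 10 strongest members were 3387 to 7015 bp wide and had peaks in 4 to 7 of the 12 libraries, against a median of 2 over all members, and all 8 had an H3K27me3 replicate 1 peak. The third, at chr9:122566755-122573256, overlaps the long non-coding gene 9530059O14Rik, lies 174 kb from Topaz1 and had folds of 3.97, 145 and 44.8, with peaks of 2 H3K27ac, 2 ISL1 and both H3K4me3 libraries. The fourth, at chr14:51737352-51743803 by Ang4, had both POU4F1 libraries and 2 ISL1 libraries but no H3K27ac. The fifth, 16.8 kb from Pax7, a paired-box factor of neural crest and muscle, had folds of 1.99, 121 and 236, and 2 ISL1 libraries had a peak in it. The sixth lies 89.6 kb from Dio3, the imprinted thyroid hormone deiodinase, with folds of 3.97, 115 and 277, and was one of the 10 members with H3K27ac in all 3 libraries. The 4 that follow lie by Pdia4, between Wnt7b and Ppara, by Polg and by Commd3, and H3K27ac lay in 2 libraries in the one by Wnt7b and in the one by Commd3. A member 17.1 kb from En1, the midbrain and hindbrain homeobox factor, and one 319 kb from Med13l on the side of Tbx3 were among the 11 with both POU4F1 libraries.

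The remotest members were narrow and nearly bare. At 1639 kb from Efnb2, the farthest was 428 bp wide with folds of 4.59 and 3.82 in replicates 2 and 3 and an H3K27ac replicate 3 peak. The next lay 1577 kb from G6pd2, 1297 kb from Pcdh10, a protocadherin gene, and, as a pair, 1175 and 1171 kb from Nxph1, with no ISL1, POU4F1 or H3K27ac peak in any of the 4.

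Non-coding genes overlapped 633 members (31.1%), with long non-coding RNA genes in 503 (24.7%), pseudogenes in 93 and tRNA genes in 11. The annotation holds 14425 non-coding genes over 10 kb from protein-coding genes. No overlap share of flanking windows or other H3K27me3 regions is given here, so these counts show no excess in the members. The longest covered lengths were 17.7 kb in Gm2164 over 6 members, 12.7 kb each in Gm29478 and Gm29683, and 11.1 kb in Gm33655. Sfta3-ps, beside Nkx2-1, had 8.47 kb in 4 members without H3K27ac, and Gm36560 had 8.97 kb in 3 members. If non-coding genes counted as genes too, 929 members would remain.

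The promoters printed above lie in a small part of the regions, and the sequences of the regions themselves were not analysed. Promoter windows of 141 non-coding genes, 170 in all, overlapped 135 members (6.63%), and their median CpG observed-to-expected ratio was 0.340 against 0.201 in the 5780 gene-distant non-coding promoters outside H3K27me3 regions. A ratio of at least 0.6 with GC of at least 50% was met by 24 of the 170 (14.1%), by 2.18% of those 5780, by 40.1% of the 845 non-coding promoters in other H3K27me3 regions, and by 45.1% of all protein-coding promoters. The windows of 9530059O14Rik and Cistr held 38 CpGs each, that of Mirc35hg 35, that of Tunar 30, that of C130071C03Rik 7 and that of Gm41033 1. Windows of alternative starts of 1 gene can overlap, so they are not independent.

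Members with such a promoter carried more of each mark. H3K4me3 replicate 2 had peaks in 17 of 135 (12.6%, 95% Wilson interval 8.01 to 19.2%) against 68 of 1900 (3.58%, 2.83 to 4.51%), and ISL1_26 in 34.1% against 17.9%. POU4F1 replicate 1 had 17.8% against 6.26%, but replicate 2 had 5.93% against 4.32%. The members with a promoter were wider, 2517 against 1533 bp in the median.

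**Figure D5:**
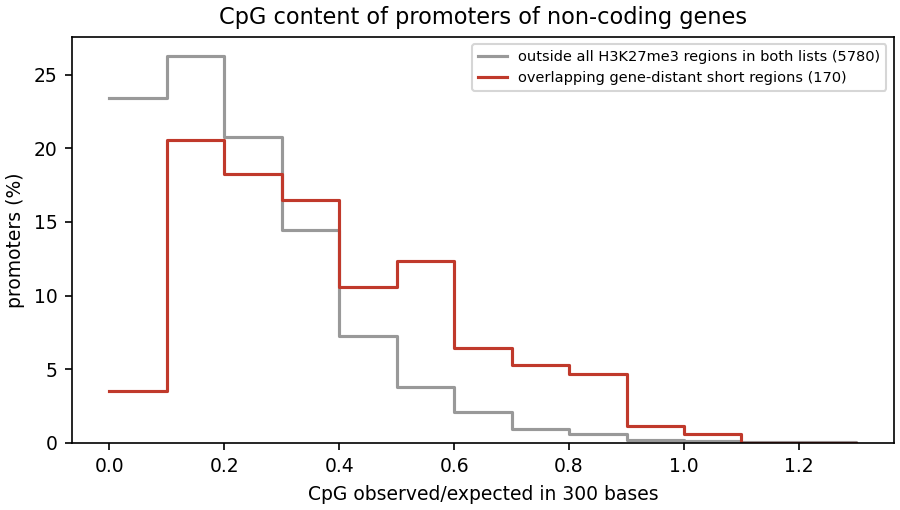
Distribution of the CpG observed-to-expected ratio (x axis) in 300-base promoter windows of non-coding genes, as a percent of windows (y axis), for 170 windows that overlap gene-distant short regions and 5780 gene-distant windows outside H3K27me3 regions. The medians are 0.340 and 0.201.

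The 23 members with a CpG-rich promoter by that measure had peaks in 1 to 10 of the 12 libraries outside the rule, with a median of 4, against a median of 3 in the 112 whose promoters did not reach it. Without the library labelled H3K4me3 replicate 1 the medians were 3 and 2, and the median widths were 3576 and 2191 bp. At the low end, the member over the promoter of Gm46840, with 30 CpGs, had 2 of the 12 and neither H3K27ac nor ISL1. The Mirc35hg member, chr6:30171273-30174890 between Nrf1 and Ube2h, had peaks in 10 of the 12 libraries outside the rule, with all 3 H3K27ac, 3 ISL1, both H3K4me3 and 1 POU4F1 libraries, and modest folds of 5.96, 9.34 and 6.36 in H3K27me3 replicates 1 to 3. Mir182, Mir96 and Mir183, which are known from sensory cells of the ear and eye, lie in the same host gene but outside the member. The Cistr member, 20.4 kb from Calcoco1, had 8 of the 12 libraries, among them 3 H3K27ac and 2 ISL1. The member at the start of Dleu2, chr14:61682546-61687919, had 9 of the 12, with 3 H3K27ac, 2 ISL1 and both H3K4me3 libraries, as did the one over Gm33582, with 3 H3K27ac and 3 ISL1 libraries. The Tunar member had 4, with 1 H3K27ac and 2 ISL1. That of the CpG-poor Gm41033 had 4, with 2 H3K27ac and no ISL1. Each of these counts is 1 lower without the library labelled H3K4me3 replicate 1, for example 9 for Mirc35hg, 7 for Cistr and 8 for Dleu2.

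Among the microRNAs, the neural ones stood in members of unequal make-up. Mir124a-2, a neuronal microRNA, lies in the member chr3:17793317-17797194, with folds of 34.6 and 3.25 in H3K27me3 replicates 2 and 3. In this member 2 H3K27ac, 3 ISL1 and both H3K4me3 libraries had a peak. A second member at chr3:17785091-17791830 overlaps its host gene Mir124-2hg, with folds of 104 and 51.2 and peaks of all 3 H3K27ac libraries. Mir9-2 lies in the member chr13:83737215-83740258, which had folds of 30.4 and 11.1, peaks of 2 ISL1 libraries and no H3K27ac. The member over the promoter of its host C130071C03Rik had 2 H3K27ac, 2 ISL1 and both H3K4me3 libraries. The Mir193a member had folds of 52.0 and 59.4, with 1 H3K27ac and 1 ISL1 library, the Mir202 member 8.15 and 7.23 with 1 ISL1 library, and the Mir365-1 member 7.29 and 13.8 with none of the 12 libraries.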

How the data were processed

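CUT&Tag peak lists of 14 libraries were used, 1 list per library, not pooled. Peaks were called by the authors with MACS2 against a control, per the peak names in the deposited files. Neither the control nor the caller's settings were stated. FastQC, Bowtie2, SEACR and the mm10 build are named, without versions, per the submitters' processing notes. The deposited columns used are the fold enrichment of a peak (a ratio to the caller's background), its −log10 q-value (a −log10 p-value stands beside it and was not used), and the summit offset of each peak. Every deposited list ends near a −log10 q of 1, so weaker signal is not seen.

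Overlapping peaks of H3K27me3 replicates 2 and 3 were merged, and distances were taken to the 21887 protein-coding genes of RefSeq GRCm38.p6, the mm10 chromosomes with patches. The gene table used has no strand, so both ends count as gene ends. A library had a peak in a region if at least 1 bp overlapped. Shares carry 95% Wilson intervals. Differences between classes of regions were tested over libraries by an exact two-sided sign-flip permutation test, with Benjamini-Hochberg adjustment over 15 comparisons. These libraries come from few targets and 1 tissue, so p measures their spread only. The steps were tested on simulated data. Python 3.11.15, numpy 2.4.6, pandas 2.3.3 and matplotlib 3.10.9 were used.

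Members, gene lists and tests were chosen with earlier results of these data known. Regions named are the 10 with the best mean rank of −log10 q in replicates 2 and 3, the 5 farthest from genes, the 5 with peaks in most libraries, up to 5 per target by rank, and those at the limits. Genes named are the 10 nearest to most members, up to 4 per list and up to 10 non-coding genes by covered length. Promoters, microRNAs, clusters and genes beside them were picked after their values were seen. IgG libraries and sequences of the regions themselves were not analysed here.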

Additional observations from a re-analysis of the deposited data

Results flagged for a closer look

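Among the 4 ISL1 libraries, ISL1_70 replicate 2 stood apart from the other 3 in how far the members exceeded their flanking windows. Its share was 8.85% in members and 4.82% in flanks, a ratio of 1.84, while the ratios of the other libraries lay between 1.29 (ISL1_70 replicate 3) and 1.36 (ISL1_26 replicate 1). Its list is the shortest of the 4, with 24573 peaks. The gap exceeds the 95% critical value of Dixon's test, which by its construction is passed by chance in about 1 of 20 groups. The rule was applied to 4 measures of these libraries and only this measure was flagged, so a flag by chance is likelier than that rate.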

How the results depend on the processing

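The number of members was 872 with a distance over 50 kb, 929 when all annotated genes counted, 526 without H3K27me3 replicate 2 (replicates 1 and 3), 377 without replicate 3 and 314 with a peak in all 3 lists. The share with an H3K27me3 replicate 1 peak was 11.9% under 4 kb, 17.3% under 16 kb and 12.9% when all annotated genes counted. The share with a listed factor as nearest gene was 16.7% without H3K27me3 replicate 2, 22.0% without H3K27me3 replicate 3 and 19.1% with all 3 lists. The cause of these moves was not tested, beyond the fewer regions that a stricter rule keeps.

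The difference from gene-near regions passed the threshold over 5 kb from every gene (-2.53 points, exact permutation, adjusted p = 0.0146), with all annotated genes (-2.09, 0.0146) and without H3K27me3 replicate 2 (-5.45, 0.0195). Leaving out each of the 11 libraries in turn gave -1.79 to -1.25 points, with adjusted p from 0.0488 to 0.127. It passed without ISL1_70 replicate 3 (-1.79) and without POU4F1 replicate 2 (-1.78), and over the settings that did not pass it lay between -3.95 and -0.304. The differences from gene-end regions (-16.2 to -7.67) and from flanks (3.76 to 14.3) kept direction and side of the threshold in all 28 settings each. Leaving out a library gave -14.8 to -12.6 and 3.76 to 10.1 for them. Leaving out regions with a peak in at least 6 of the 12 libraries, a setting chosen after seeing the data, gave -0.304 and -7.67 points, but it selects on the measured outcome and shrinks both differences by construction, so it is no check on them. With flanks that hold no H3K27me3, a setting chosen after seeing the data, the difference from flanks was 11.9 points. That mean includes the library labelled H3K4me3 replicate 1, which had a peak in 84.4% of members and 1.25% of these flanks. It was not computed without that library.

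No paired analysis was possible because no test compares groups of libraries, so a replicate number has no samples to pair. The sign-flip test itself pairs the classes of regions within each library. The lists hold no depth, and signal under the caller's threshold is not seen.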
